A study of Mus musculus with 4 samples.

Results

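The 10 genes described here encode 7 matrix metalloproteinases (Mmp2, Mmp3, Mmp9, Mmp12, Mmp13, Mmp14 and Mmp19) and 3 tissue inhibitors of metalloproteinases (Timp1, Timp2 and Timp3). They were chosen by name, as every probe set of the value table paired with exactly 1 of these symbols, which gave 23 probe sets for 10 of the 18193 genes on the array. RNA came from whole aortas of mice aged 6 weeks. One group lacked Smad4 in smooth muscle cells (Smad4-KO), and the other was made up of their wild-type littermates (WT). Smad4 is the protein that receptor-activated Smads of the TGF-beta and BMP pathways share. Each group had 2 Affymetrix arrays, called replicate 1 and replicate 2, and the 400 ng of RNA for an array came from 3 to 5 pooled vessels. The labels name neither the promoter that removed Smad4 nor the part of the gene that was lost. The deletion is labelled as specific to smooth muscle, and Smad4 was not measured by cell type here.

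Matrix metalloproteinases are zinc enzymes that cut collagens, elastin, proteoglycans and other proteins outside the cell. Most are secreted as inactive precursors, and a prodomain with a cysteine that binds the zinc must be removed before they act. Tissue inhibitors block the active site by binding it in a tight complex. The protein of Timp2 also takes part in activation, since it links the precursor of Mmp2 to Mmp14 on the cell surface. In the aorta the balance of these proteins is known for its part in elastic fibre loss and in aneurysm. Transcript levels, which were measured here, do not show how much enzyme is active.

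In the Smad4-KO aortas, transcripts of the collagenase Mmp13, the stromelysin Mmp3, the gelatinase Mmp9 and the inhibitor Timp1 were higher. The measured fold was 3.07 for Mmp3, 4.79 for Mmp9 and 8.98 for Timp1, and at least 4.64 for Mmp13. Thus 4 of the 10 genes rose and 0 fell at an adjusted p of 0.05 in limma, where 4.92% of the 13645 genes tested were called higher and 1.39% lower. At an unadjusted p under 0.05, 7 of the 10 were higher and 0 lower, against 13.1% of all genes higher. The median log2 difference was 1.62 over the 7 metalloproteinases and -0.50 over the 3 inhibitors, beside -0.01 over all genes tested. All 10 genes passed the filter on low signal, which left out genes whose mean log2 signal lay under 5.64. The WT means of Mmp12 and Mmp13 lay under it, so these genes were tested because of their Smad4-KO signals. Of the other 8 genes, 3 rose, and 5 were higher and 0 lower at an unadjusted p under 0.05. The adjusted p of Mmp3 and of Timp1 lay just under the threshold, and the calls depended on the processing, as given with each gene. A gene is represented by its brightest probe set, and a value after ± is the standard error from limma for 2 against 2 arrays. The number of arrays limits the precision.

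**Figure D1:**
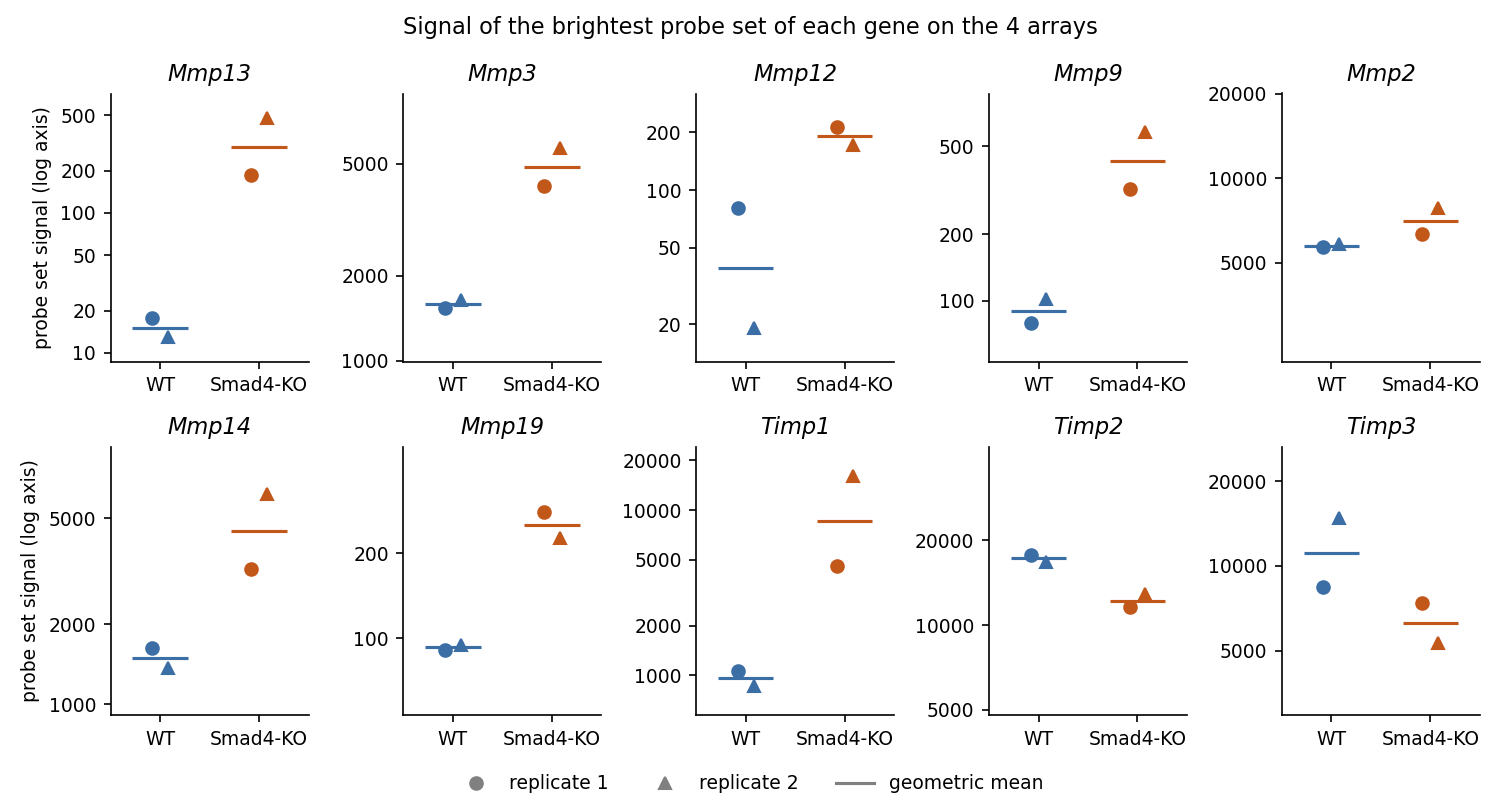
Signal of the brightest probe set of each gene on the 4 arrays, on a log axis that differs between genes, with WT in blue, Smad4-KO in orange, circles for replicate 1, triangles for replicate 2 and bars for the geometric mean. All 7 metalloproteinases and Timp1 have both Smad4-KO points above both WT points, and Timp2 and Timp3 have both below.

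Several measures of the arrays stand beside these values. Median signals were 111 to 137. The 3 probe sets of Smad4 itself had log2 differences of -0.90, -0.43 and -0.40 (Smad4-KO minus WT). None passed in the limma fit of every probe set (adjusted p of 0.562 or more). That fit called 0 of 34945 probe sets (lowest adjusted p = 0.13), so the lack of a call says little about Smad4. For 2 of the Smad4 probe sets the groups did not overlap, and whether any lies in the deleted part is not stated. The beta-actin 3'/5' ratio rises as RNA or its labelled copies get shorter. It reached 11.4 for WT replicate 1 and 12.8 for Smad4-KO replicate 2. It was 4.19 for WT replicate 2 and 2.83 for Smad4-KO replicate 1. In the same order, the ratio of Dap, a bacterial control sequence, was 10.02 and 14.06, against 2.96 and 3.62. That of Gapdh was 3.27 and 3.00, against 1.44 and 1.04. Whether the RNA or its copies were shorter was not tested. Skeletal muscle markers summed to a signal of 13813 on Smad4-KO replicate 2 and to 556 to 1022 on the other arrays. Fat cell markers summed to 78735 and 65450 on WT replicate 1 and Smad4-KO replicate 1, and to 32465 and 31414 on WT replicate 2 and Smad4-KO replicate 2. The pairs of arrays alike in beta-actin ratio, and those alike in fat signal, each hold an array of both genotypes. The labels name no such pairs. Differences within both kinds of pair are given below. In RNA of a whole tissue, a change in the number of cells of a type and a change in RNA per cell cannot be told apart.

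Among the secreted collagenases and stromelysins, Mmp13, an enzyme that cuts fibrillar collagen, had the lowest adjusted p of the 10 genes. Its probe set (1417256_at) read 17.7 and 12.9 in WT against 185 and 476 in Smad4-KO. The groups did not overlap, and both WT values lay under 64, the floor used for folds. The log2 difference was 4.30 ± 0.52 (95% interval 2.99 to 5.60, adjusted p = 0.0175). With signals under 64 raised to 64 the measured fold was at least 4.64, and the test no longer passed (adjusted p = 0.0908). It did not pass without WT replicate 1 (adjusted p = 0.0546) or without WT replicate 2 (adjusted p = 0.0861). It passed under 7 of 12 alternatives (adjusted p from 0.00076 to 0.0908). The lowest value came with arrays of the same number taken as a block, as it did for Mmp9, Mmp12 and Timp1 below. The labels do not name such a pairing.

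Mmp3, which cuts many matrix proteins and the precursors of other metalloproteinases, read 1542 and 1648 in WT (1418945_at). In Smad4-KO it read 4188 and 5709. Both groups were narrow, with the WT arrays 1.07-fold apart and the Smad4-KO arrays 1.36-fold apart, and they did not overlap. The log2 difference was 1.62 ± 0.32 (95% interval 0.82 to 2.42, adjusted p = 0.0488). The call held under 5 of 13 alternatives (adjusted p from 0.0266 to 0.22) and ended when any 1 of the 4 arrays was left out: the adjusted p was 0.21 without WT replicate 1, 0.22 without WT replicate 2, 0.0614 without Smad4-KO replicate 1 and 0.118 without Smad4-KO replicate 2. The difference itself stayed between 1.39 and 1.84.

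Mmp12, the elastase of macrophages, read 80.5 and 19.1 in WT against 212 and 171 in Smad4-KO (1449153_at). The groups did not overlap, but the WT arrays lay 4.21-fold apart. The log2 difference was 2.28 ± 0.70 (95% interval 0.54 to 4.02) and did not pass (adjusted p = 0.146). With signals under 64 raised to 64, which touches WT replicate 2 alone, the difference was 1.41 (adjusted p = 0.0635) and the measured fold at least 2.66. Against WT replicate 1 the Smad4-KO arrays were higher by 1.40 and 1.09, and against WT replicate 2, so raised, by at least 1.73 and 1.42. Of 12 alternatives, 2 gave a call, and without WT replicate 1 the adjusted p was 0.0473 (lowest 0.0181, highest 0.346).

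Mmp9, the gelatinase B of neutrophils and macrophages, had a pair of probe sets. The brighter (1416298_at) read 79.2 and 102 in WT against 321 and 577 in Smad4-KO. The dimmer (1448291_at) read 61.6 and 21.0 in WT against 255 and 401 in Smad4-KO. Neither overlapped between the groups. The brighter had a log2 difference of 2.26 ± 0.40 (95% interval 1.26 to 3.26, adjusted p = 0.0373). The dimmer had a difference of 3.15, and with signals under 64 raised to 64 it was at least 4.99-fold higher in Smad4-KO. The call on the brighter held under 5 of 12 alternatives (adjusted p from 0.00813 to 0.156). It ended when WT replicate 1, WT replicate 2 or Smad4-KO replicate 2 was left out, with adjusted p-values of 0.156, 0.143 and 0.0672.

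Mmp2, the gelatinase A made by fibroblasts and smooth muscle, differed least of the metalloproteinases. Its brighter probe set (1416136_at) read 5690 and 5820 in WT against 6337 and 7823 in Smad4-KO. The log2 difference was 0.29 ± 0.30 (adjusted p = 0.729), and the 95% interval from -0.47 to 1.05 takes in no difference as well as a rise larger than the estimate. The other Mmp2 probe set (1439364_a_at) read 5579 and 4695 in WT against 5172 and 10825 in Smad4-KO, so the groups overlapped and the higher mean came from Smad4-KO replicate 2.

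Mmp14 is a membrane-anchored metalloproteinase that cuts collagen at the cell surface and activates the precursor of Mmp2. Its brightest probe set (1448383_at) read 1631 and 1365 in WT against 3214 and 6171 in Smad4-KO. The next (1440920_at) read 231 and 223 in WT against 906 and 1069 in Smad4-KO, and the dimmest (1416572_at) read 106 and 238 in WT against 546 and 347 in Smad4-KO. In each of the 3 the Smad4-KO arrays lay above the WT arrays. The log2 difference of the brightest was 1.58 ± 0.41 (95% interval 0.54 to 2.61) and did not pass (adjusted p = 0.10044). The other probe sets had differences of 2.12 and 1.46. The gene passed under 1 of 13 alternatives, without Smad4-KO replicate 1 (adjusted p = 0.0497, where the highest was 0.388).

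Mmp19, a metalloproteinase found in vessel walls and myeloid cells, read 90.6 and 94.8 in WT against 282 and 226 in Smad4-KO on its brighter probe set (1421977_at). The log2 difference was 1.45 ± 0.30 (95% interval 0.68 to 2.21) and missed the threshold (adjusted p = 0.058). It passed under 0 of 12 alternatives (adjusted p from 0.0516 to 0.256). The dimmer probe set (1421976_at) read 76.0 and 99.8 in WT against 119 and 113 in Smad4-KO, a difference of 0.41. Both probe sets had the Smad4-KO arrays above the WT arrays, but by unequal amounts.

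**Figure D2:**
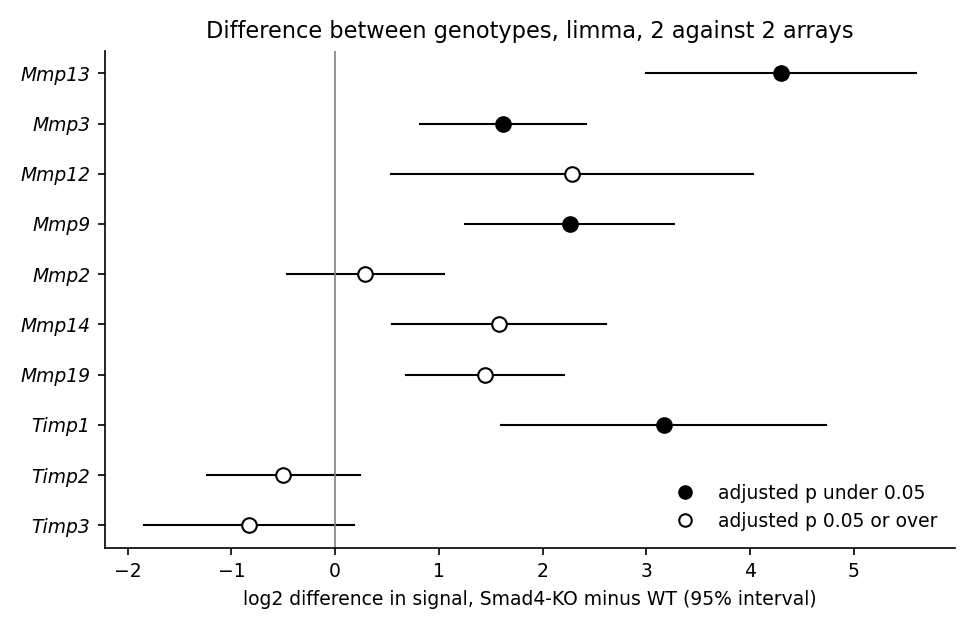
Log2 difference in signal (Smad4-KO minus WT) of the brightest probe set of each gene with its 95% interval from limma, filled where the adjusted p is under 0.05. Mmp13, Mmp3, Mmp9 and Timp1 are filled, and the intervals of Mmp2, Timp2 and Timp3 span 0.

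Of the inhibitors, Timp1, a secreted protein that blocks most metalloproteinases, rose. It read 1065 and 861 in WT against 4596 and 16109 in Smad4-KO (1460227_at). The groups did not overlap, and the Smad4-KO arrays lay 3.51-fold apart, the widest gap between them among the 10 genes. The log2 difference was 3.17 ± 0.63 (95% interval 1.60 to 4.73, adjusted p = 0.0486). Without Smad4-KO replicate 2, the array with the higher value and with the skeletal muscle signal, the difference was 2.26 and passed (adjusted p = 0.039). It did not pass without WT replicate 1 (adjusted p = 0.139) or WT replicate 2 (adjusted p = 0.207), and passed under 6 of 13 alternatives (adjusted p from 0.00491 to 0.207).

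Timp2 and Timp3 had their brightest probe sets lower in Smad4-KO, and neither passed. Timp2 read 17787 and 16793 in WT against 11594 and 12892 in Smad4-KO (1454677_at), a log2 difference of -0.50 ± 0.29 (95% interval -1.23 to 0.23, adjusted p = 0.469). Timp3, an inhibitor that stays bound to the matrix, read 8396 and 14753 in WT against 7383 and 5303 in Smad4-KO (1449335_at). Its log2 difference was -0.83 ± 0.41 (95% interval -1.85 to 0.18, adjusted p = 0.366). Both passed under 0 of 13 alternatives.

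The probe sets of Timp2 and Timp3 did not all give the same picture. Of 6 Timp2 probe sets, 5 had a lower mean in Smad4-KO and 3 had no overlap between the groups. The 3 without overlap had differences of -0.50, -0.86 and -0.92. A bright Timp2 probe set (1460287_at) overlapped, with 11233 and 10343 in WT against 7559 and 13199 in Smad4-KO. The dimmest (1437081_at) read 22.3 and 88.9 in WT against 82.9 and 37.5 in Smad4-KO. All 4 Timp3 probe sets had a lower mean in Smad4-KO, and 2 of them did not overlap. The highest value of each Timp3 probe set was on WT replicate 2. On its dimmer pair of probe sets, WT replicate 1 read 910 and 249, which is not above both Smad4-KO arrays (966 and 968, and 421 and 219).

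Over all 23 probe sets, 12 had both Smad4-KO arrays above both WT arrays and 5 had both below. The same held for 21.5% and 19.0% of the 34945 probe sets with 1 symbol. Over the genes by their brightest probe set, 8 of 10 lay wholly above and 2 wholly below, where 25.9% and 21.4% of all genes did. Without Mmp12 and Mmp13, tested because of their Smad4-KO signals, 6 of 8 lay wholly above and 2 wholly below. When every probe set was fitted by itself without a filter, limma called 0 of 34945 (4090 at an unadjusted p under 0.05, lowest adjusted p = 0.13). With the filter on signal it called 184 probe sets higher, 0.702% of the 26209 that passed, and 0 of the 23 described here, of which 9 had an unadjusted p under 0.05 in the fit without a filter.

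**Figure D3:**
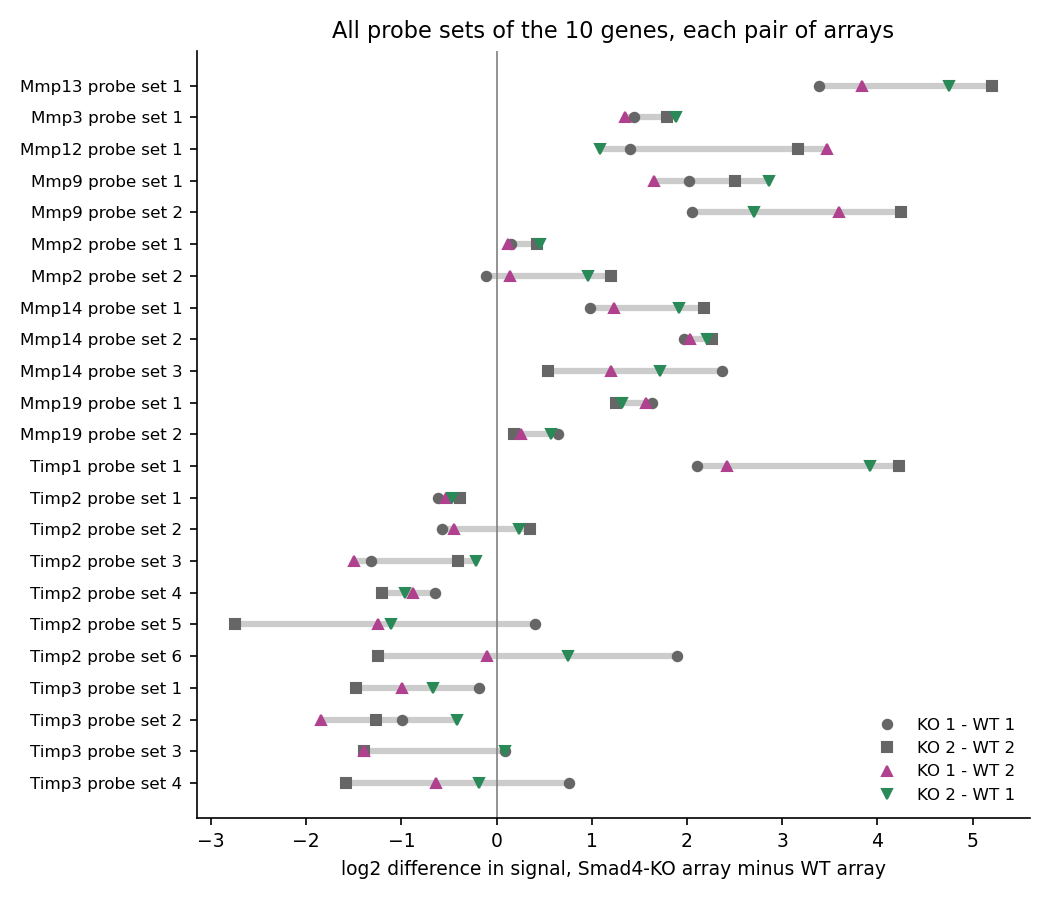
Log2 difference of each Smad4-KO array minus each WT array for all 23 probe sets, ordered by gene and numbered from brightest to dimmest, with a marker for each pair of arrays and a grey bar for their range. Every pair is above 0 for Mmp13, Mmp3, Mmp12, Mmp9, Mmp14, Mmp19 and Timp1, and 3 of 6 Timp2 and 2 of 4 Timp3 probe sets spread across 0.

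The differences within pairs of arrays kept the sign of each gene. In the pair with the high beta-actin ratios (Smad4-KO replicate 2 minus WT replicate 1) the log2 difference was at least 2.89 for Mmp13 (with the floor of 64), 1.89 for Mmp3, 2.87 for Mmp9 and 3.92 for Timp1. In the pair with the low ratios (Smad4-KO replicate 1 minus WT replicate 2) it was at least 1.53, then 1.35, 1.66 and 2.42 in the same order. In the pairs alike in fat signal, which are those of replicates 1 and of replicates 2, it was at least 1.53 and 2.89 for Mmp13, 1.44 and 1.79 for Mmp3, 2.02 and 2.50 for Mmp9, and 2.11 and 4.23 for Timp1. Because the groups did not overlap, no pair could change sign. These 4 genes were higher on Smad4-KO replicate 2 than on replicate 1, as were Mmp14 and Mmp2, while Mmp12 and Mmp19 were higher on replicate 1. With the pairs alike in beta-actin ratio as a block, the adjusted p in limma was 0.0557 for Mmp13 and 0.0723 for Timp1. It was 0.0955 for Mmp9 and 0.0984 for Mmp3. That block ended every call on the array (0 of 13645, 2658 at an unadjusted p under 0.05). Across genes, the deviations of the arrays with the same number had a correlation of -0.00984. For the pairs alike in beta-actin ratio it is the same with the sign reversed. Effects shared within both kinds of pair would offset each other in this value, so it cannot show that either is absent. The part of shorter RNA or copies, and of skeletal muscle, in these differences was not tested.

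**Figure D4:**
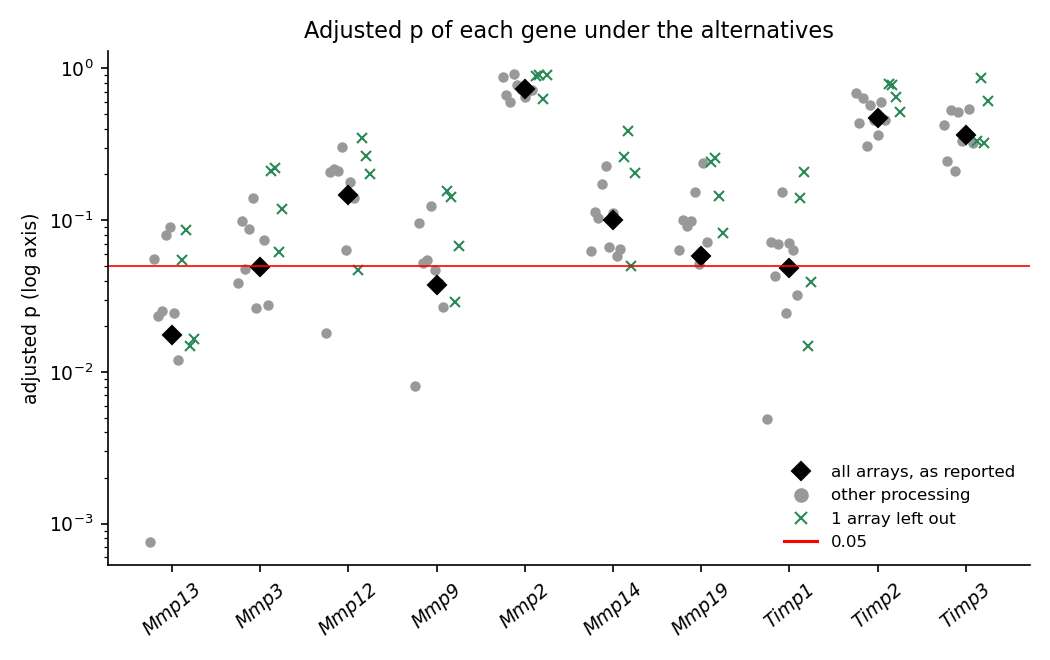
Adjusted p of each gene from limma on a log axis: black diamonds are the values from all arrays, grey circles other ways of processing, green crosses fits with 1 array left out, and the red line is 0.05. Mmp13, Mmp3, Mmp9 and Timp1 have points on both sides of the line, and Mmp2, Mmp19, Timp2 and Timp3 have none under it.

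Mmp13, Mmp12 and Mmp3 lie in the metalloproteinase gene cluster of mouse chromosome 9. In the RefSeq table the protein-coding genes there follow each other in the order Mmp13, Mmp12, Mmp1b, Mmp3, Mmp1a, Mmp10, Mmp8, Mmp27, Mmp20 and Mmp7. Mmp8, the collagenase of neutrophil granules, was at least 4.53-fold higher in Smad4-KO with signals under 64 raised to 64. It read 77.4 and 49.3 in WT against 335 and 303 in Smad4-KO (2.37 ± 0.35, adjusted p = 0.0246). Mmp10, a second stromelysin, read 47.6 and 81.3 in WT against 64.2 and 83.2 in Smad4-KO, so the groups overlapped (0.23 ± 0.39, adjusted p = 0.85). Mmp1a, Mmp1b, Mmp7 and Mmp20 were too dim to test, with every array under 64, and Mmp27 was not analysed here. Of the 5 genes of the cluster that were tested, Mmp13, Mmp3 and Mmp8 rose, while Mmp12 and Mmp10 did not pass. The Mmp8 call ended when WT replicate 1, WT replicate 2 or Smad4-KO replicate 1 was left out, with adjusted p-values of 0.0636, 0.134 and 0.0536.

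**Figure D5:**
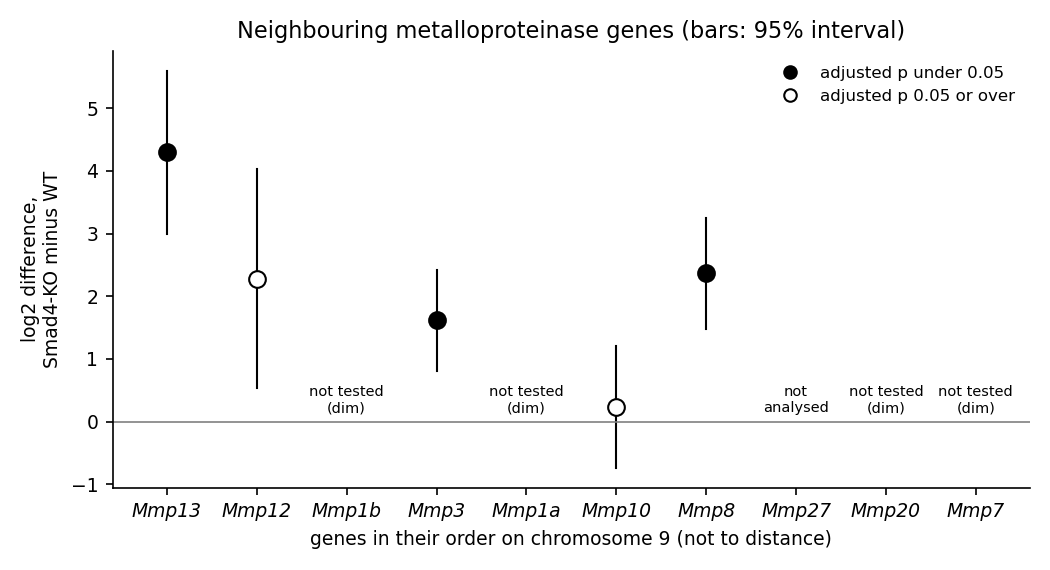
Log2 difference (Smad4-KO minus WT) with its 95% interval for the metalloproteinase genes of chromosome 9 in their order along it, filled where the adjusted p is under 0.05. Mmp13, Mmp3 and Mmp8 are filled, and Mmp10 lies near 0.

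The promoters of Mmp13, Mmp12 and Mmp3 are shown because they are neighbours, and that of Timp1, on chromosome X, because it is the inhibitor that rose. AP-1 factors (Fos and Jun dimers) and Ets factors are known to bind near the start of genes of this family. The sequences are the 250 bases before the gene's start from RefSeq (GRCm38.p6), 5′ to 3′ on the + strand, with matches to the AP-1 motif TGANTCA and the Ets motif AGGAAG in capitals. The windows are chr9:7272264-7272513 for Mmp13, chr9:7347124-7347373 for the second of the pair of Mmp12 starts, chr9:7445572-7445821 for Mmp3 and chrX:20869916-20870165 for Timp1.
Mmp13: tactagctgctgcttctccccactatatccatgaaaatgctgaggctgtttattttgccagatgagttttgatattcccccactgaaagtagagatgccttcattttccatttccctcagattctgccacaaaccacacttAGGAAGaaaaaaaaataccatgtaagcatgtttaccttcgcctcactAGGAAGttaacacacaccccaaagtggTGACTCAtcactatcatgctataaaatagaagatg
Mmp12: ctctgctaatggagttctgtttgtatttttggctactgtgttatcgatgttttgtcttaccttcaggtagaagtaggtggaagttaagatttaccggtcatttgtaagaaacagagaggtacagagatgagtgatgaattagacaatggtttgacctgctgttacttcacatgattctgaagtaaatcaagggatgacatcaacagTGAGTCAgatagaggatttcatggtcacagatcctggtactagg
Mmp3: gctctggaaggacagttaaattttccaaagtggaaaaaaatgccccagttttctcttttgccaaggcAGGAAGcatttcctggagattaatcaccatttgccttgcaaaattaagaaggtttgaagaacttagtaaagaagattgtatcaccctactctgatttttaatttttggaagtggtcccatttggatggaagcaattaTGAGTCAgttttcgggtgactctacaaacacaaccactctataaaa
Timp1: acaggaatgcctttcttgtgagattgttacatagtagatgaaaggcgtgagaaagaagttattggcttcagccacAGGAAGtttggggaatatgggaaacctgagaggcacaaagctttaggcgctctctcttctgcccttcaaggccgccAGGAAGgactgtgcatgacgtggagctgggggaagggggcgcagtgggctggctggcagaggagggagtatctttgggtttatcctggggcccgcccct

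The AP-1 motif began 35 bases before the start of Mmp13, 44 before that Mmp12 start and 46 before Mmp3. The window of the first Mmp12 start (chr9:7344147-7344396), not shown, held an Ets match 87 bases before it and no AP-1 match. There were 8 windows for 7 of the 10 genes (Mmp3, Mmp12, Mmp13, Mmp14, Timp1, Timp2 and Timp3). Of these windows, 3 held the AP-1 motif on either strand, as did 6.75% of 32851 windows in the table. The Ets motif was in 6 of the 8 windows and in 29.5% of all. It lay 109 and 62 bases before Mmp13, 183 before Mmp3, and 175 and 99 before Timp1, whose window has no match to TGANTCA. The Smad motifs GTCTNGAC and CAGACA were in 0 of the 8 windows, and in 1.47% and 17.1% of all. A match describes letters in a window and does not show that a factor binds there.

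The rest of the family moved in both directions. Of 17 other Mmp and Timp genes, 12 had a probe set and 8 could be tested, of which Mmp8 rose and Mmp17 fell; their median log2 difference was -0.29. Mmp17, a metalloproteinase anchored to the membrane by a lipid, read 1269 and 1509 in WT against 399 and 368 in Smad4-KO (-1.85 ± 0.30, adjusted p = 0.03). The arrays of each group were close and the groups did not overlap. The Mmp17 call ended when any 1 array was left out (adjusted p from 0.0596 to 0.184).

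Genes that activate, bind or clear metalloproteinases were counted as a list of 26, of which 20 could be tested. Of these, 4 rose and 1 fell, with a median of 0.40. Lcn2 read 118 and 58.8 in WT against 2106 and 1453 in Smad4-KO, at least 20.1-fold higher with the floor of 64 (4.39 ± 0.45, adjusted p = 0.0136). Spock1, a secreted proteoglycan, was at least 7.63-fold higher on its brightest probe set (3.82 ± 0.31, adjusted p = 0.0125). The WT mean of that probe set lay under the filter on low signal, so Spock1 was tested because of its Smad4-KO signals. The mean of its probe sets gave a smaller difference of 2.44 (adjusted p = 0.0317). Thbs1, a matricellular protein, had a difference of 2.91 ± 0.57 (adjusted p = 0.0482), and Tfpi2, an inhibitor of serine proteases, rose 4.12-fold (2.04 ± 0.29, adjusted p = 0.0222). The fall was that of Itgb3, a subunit of an integrin, named after its value was seen: it read 2539 and 2286 in WT against 779 and 778 in Smad4-KO (-1.63 ± 0.29, adjusted p = 0.0382). Without WT replicate 2 none of these 5 calls held. The Thbs1 call also ended without WT replicate 1 or Smad4-KO replicate 1, that of Tfpi2 without WT replicate 1, and that of Itgb3 without any 1 array.

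Of 22 transcription factors and cytokines known to induce metalloproteinase genes, 16 could be tested, 2 rose and 1 fell (median 0.18). The cytokine Il6 was at least 15.9-fold higher with the floor of 64 (5.18 ± 0.71, adjusted p = 0.0207). It read 15.8 and 49.9 in WT against 634 and 1635 in Smad4-KO. Its WT mean lay under the filter on low signal, so it was tested because of its Smad4-KO signals. Il1b was at least 17.7-fold higher, with 41.8 and 122 in WT against 1260 and 1942 in Smad4-KO (4.45 ± 0.58, adjusted p = 0.0194). Fosb, a partner in AP-1, read 230 and 274 in WT against 84.9 and 60.4 in Smad4-KO, and fell by 1.81 on the log2 scale (± 0.33, adjusted p = 0.0406). Without WT replicate 2 these 3 calls ended, those of Il6 and Fosb ended without WT replicate 1 as well, and that of Fosb without Smad4-KO replicate 2.

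Of 16 matrix substrates tested, 0 passed in limma (2 at an unadjusted p under 0.05, both lower), and the median was -0.21. These were Fbln5, which binds elastin to cells, at 15201 and 18314 in WT against 6696 and 6424 in Smad4-KO (-1.35 ± 0.30, adjusted p = 0.0665), and Eln, the elastin gene, at 32594 and 35973 in WT against 7363 and 16220 in Smad4-KO (-1.65 ± 0.45, adjusted p = 0.113). Each passed under 2 of 13 alternatives. Eln was past the threshold without Smad4-KO replicate 2, where the difference was -2.22 (adjusted p = 0.0383, highest 0.389), and its difference was -1.08 without Smad4-KO replicate 1. Fbln5 passed with the filter at the 50th percentile (adjusted p = 0.041) and with the trend and robust options of eBayes (adjusted p = 0.0453, highest 0.341).

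Markers of several cell types also differed between the genotypes. Of 15 macrophage markers, 9 rose, with a summed signal of 15243 to 21241 in WT and 72289 to 102508 in Smad4-KO. The means of 2, Cd163 and Mertk, were lower in Smad4-KO (log2 differences -0.56 and -0.36), with groups that overlapped. Of 7 neutrophil markers tested, 5 rose, from 565 to 1741 in WT to 15108 to 19134 in Smad4-KO. Of these 5, Csf3r had a WT mean under the filter on low signal and was tested because of its Smad4-KO signals. WT replicate 1 had the higher sum of each list in WT. On their brightest probe sets Mmp12, Mmp13, Mmp14 and Timp1 were higher on WT replicate 1, while Mmp9, Mmp3, Mmp19 and Mmp2 were higher on WT replicate 2. These gaps ran from 1.02-fold for Mmp2 to 4.21-fold for Mmp12, and both WT values of Mmp13 lay under 64. The other probe sets of Mmp9 and Mmp2, and the dimmest of Mmp14, had the opposite order. WT replicate 1 also had the higher beta-actin ratio of the WT arrays. Of 12 contractile smooth muscle markers, of which Acta2 was the brightest, 7 fell, from a sum of 186637 to 215644 in WT to 85537 to 95998 in Smad4-KO. Of 9 sympathetic nerve cell markers, 9 rose, from 1722 to 1926 in WT to 26632 to 35476 in Smad4-KO. Their part in the differences of the 10 genes was not tested.

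Markers of 6 other cell types, counted in the same way, gave 0 calls in limma. Of 9 fibroblast markers, 0 passed in limma (1 at an unadjusted p under 0.05, lower), and their sums overlapped, at 103368 to 107062 in WT and 85951 to 117403 in Smad4-KO. Of 9 endothelial markers, 0 passed (1 at an unadjusted p under 0.05, higher). Of 6 mast cell markers, 0 passed, and 0 had an unadjusted p under 0.05. Cartilage and bone markers, of interest because Mmp13 is abundant in those cells, could be tested for 4 of 11 genes, with 0 past the threshold and 0 at an unadjusted p under 0.05. Their sum was 535 to 649 in WT and 517 to 635 in Smad4-KO. Skeletal muscle markers (0 of 7, with 2 at an unadjusted p under 0.05) had a median log2 difference of 1.61, with the high sum on Smad4-KO replicate 2 given above. Fat cell markers (0 of 7, with 1) had a median of -0.26, with 5 means lower in Smad4-KO and 2 higher. The largest fall was that of Ucp1, named after its value was seen. It read 9417 and 1170 in WT against 773 and 69.9 in Smad4-KO (-3.84, adjusted p in limma 0.222). The 2 higher means were those of Adipoq (0.40) and Cidec (0.12), with groups that overlapped.

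For each gene that rose, the 3 genes with the most similar values over the 4 arrays were found, by the root mean square difference of log2 values after each gene was centred on its own mean. For Mmp13 these were Klra2, Bex1 and Ccr2, at distances of 0.12 to 0.135. For Mmp3 they were Icos, AU020206 and Tcirg1 (0.0251 to 0.0426), for Mmp9 Rgs1, Rnf213 and Brsk1 (0.028 to 0.0599), and for Timp1 Gpr171, Sap30 and Slfn2 (0.14 to 0.156). With 4 arrays, such likeness is a description only.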

How the data were processed

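Probe set signals of 4 Affymetrix arrays were used as deposited. Per the submitters' processing notes, the authors used Affymetrix Expression Console and RMA, but the deposited values are an intensity on a linear scale, and the mean after trimming 2% at each end is 500 on every array, a form that RMA does not give. Detection calls were not used here. Of 45101 probe sets, 34945 were paired with 1 symbol and entered the analysis; those with several symbols (932), with no symbol (9160) and the 64 controls did not. On the log2 scale the brightest probe set (highest mean over the arrays) stood for the gene, and genes with a mean below the 25th percentile were left out. Genotypes were compared with limma 3.58.1 in R 4.3.3 (lmFit, eBayes, genotype alone, two-sided), adjusted by Benjamini-Hochberg over 13645 genes. P-values reflect the spread between pools. Folds written "at least" used signals under 64 raised to 64 and are bounds on the measured ratio, with no allowance for spread. The procedure was tested on simulated data.

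The genes, gene lists and alternatives were chosen with earlier results of these data known. All 10 genes were named whatever their result; of each other list, up to 4 genes past the threshold with the largest differences or else the 2 of lowest p; and, as most alike, 3 genes for each of the 10 that passed. A fit of every probe set above the filter on signal was added after seeing the data. The alternatives were a replicate block, a block of the pairs alike in beta-actin ratio, quantile normalization, median centring and no filter. The others were a filter at the 50th percentile, a floor of 64, the mean of probe sets, and eBayes with trend and robust. Each array was also left out in turn, and each probe set was fitted by itself.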

Additional observations from a re-analysis of the deposited data

How the results depend on the processing

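Over all alternatives run, the 10 genes kept the direction of their difference, except that the dimmest Timp2 probe set fitted by itself was higher in Smad4-KO (0.33). Most alternatives could not have reversed a direction. The groups did not overlap on the brightest probe sets, so neither leaving out 1 array nor the floor can reverse it. The blocks, the filters and the eBayes options leave the difference itself unchanged. Of the 10 genes, 4 were called higher. This became 0 with the block of pairs alike in beta-actin ratio and with no filter, and 1 with arrays centred on their medians. It became 2 with signals below 64 raised to 64, with the mean of probe sets and with the filter at the 50th percentile. That filter leaves out Mmp9, Mmp12, Mmp13 and Mmp19. Leaving out 1 array gave 0 to 4. Over all genes, 672 were called higher and 189 lower. The replicate block gave 1035 and 286, and the beta-actin pair block 0 and 0 (2658 at an unadjusted p under 0.05). No filter gave 0 and 0 (2788), and the mean of probe sets 427 and 91. Leaving out 1 array gave 0 to 632 higher and 0 to 176 lower; without WT replicate 2 the count was 0 (1791 at an unadjusted p under 0.05), and without WT replicate 1 it was 252 and 18. An array left alone in its genotype was assumed to vary like the other group. Median centring moved the median difference of all genes from -0.01 to -0.22 and gave 453 higher and 225 lower, and the filter at the 50th percentile gave 480 and 224. With the replicate block Mmp12 (adjusted p = 0.0181) and Eln (adjusted p = 0.0461) also passed. For arrays with the same number the correlation of deviations across genes was -0.00984. The labels name no pairs, and the numbers were not taken to pair the samples. The fat cell marker sums were nonetheless alike within each number. With 2 arrays per group, the pairs alike in beta-actin ratio give the same correlation with the sign reversed. Effects shared within both kinds of pair would offset each other in it, so a value near 0 cannot show that either is absent. Signals below 64, as for Mmp13 and Mmp12 in WT, limit what a fold can show.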
